A study of Homo sapiens with 72 samples.

Results

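The genes described here were 6 oncofetal genes, HMGA1, HMGA2, IGF2BP1, IGF2BP2, IGF2BP3 and LIN28B, taken by symbol from a count table of 44659 gene names, 29493 of which had at least 1 count. They were chosen by measured values: HMGA2 had lost most of its mRNA in siCTU2 cells when compared with siGL2 cells, and its paralogue HMGA1, the IGF2BP genes and LIN28B were added as genes whose 3′ ends carry or may carry sites of the let-7 type. Levels and changes of the members in the siCTU2 and siGL2 libraries are therefore given as a description with no test. Members were tested in the mQ and pQ libraries. The choice also named stability, without saying in which cells, so the p-values of the members after the transcription block in mQ and pQ cells may not be independent of it. All 6 members passed the filter on low counts in every comparison.

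HMGA1 and HMGA2 are small chromatin proteins that bind AT-rich DNA through AT-hook motifs. IGF2BP1, IGF2BP2 and IGF2BP3 are RNA-binding proteins that associate with mRNAs in the cytoplasm and affect their stability, transport and translation. LIN28B binds precursors of the let-7 microRNAs and prevents their maturation, and let-7 in turn represses LIN28B, HMGA2 and IGF2BP mRNAs through sites in their 3′ untranslated regions (3′UTRs). Most of these genes are abundant in the embryo, low in adult tissue and expressed again in many tumours, melanoma included.

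The 72 libraries were made with QuantSeq from the cytoplasmic RNA of A375, a human melanoma cell line. QuantSeq reads the 3′ end of polyadenylated RNA, and the libraries form 24 groups of 3 replicates. In the first experiment, cells were transfected for 42 h with a pool of siRNAs against CTU2 (siCTU2), which encodes a subunit of the enzyme that thiolates the wobble uridine of tRNAs for lysine, glutamine and glutamate, or with a luciferase siRNA (siGL2). In the second, cells spent 18 h in glutamine-free medium (mQ) or in the control medium (pQ). Each condition was sampled at 0, 3 and 5 h of triptolide at 25 µM, which blocks transcription (T arm), and of triptolide with cycloheximide at 100 µg/ml, which blocks translation (TCHX arm). The labels do not say that replicates came from separate cultures, so p-values measure the spread between these libraries, which may be technical.

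Libraries held 5987692 to 15534331 counts, and levels are given as CPM, the counts scaled to the library total, in which 1 count was worth 0.0644 to 0.167 CPM. Of the melanocyte markers, SOX10 reached 25.4 to 424 CPM and MITF 30.8 to 377 CPM, while MLANA and TYR stayed at or below 1.47 CPM. More genes were detected (19896 to 20364, where the other 69 libraries had 15507 to 17495) in 3 libraries, all of replicate 3: pQ TCHX 0 h, mQ T 5 h and the one labelled siCTU2 TCHX 5 h. They held the leukocyte genes PTPRC and CD3E at 31.1 to 32.6 CPM, against at most 0.759 CPM elsewhere. CTU2 went against the label in the library labelled siCTU2 TCHX 5 h replicate 3, with 10.4 CPM against 0.203 and 0.168 CPM in replicates 1 and 2. HMGA2 reached 215 CPM in that library and 52.8 and 49.1 CPM in the other libraries of its group. At 5 h, replicate 3 stood apart in every condition.

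The let-7 family is shown first because the members share its target sites. The table of RefSeq mature microRNAs (GRCh38.p14) held 9 members of the family, all 22 bases long with the same seed in bases 2 to 8. Of these, 3 follow, with the seed in capitals.
hsa-let-7a-5p: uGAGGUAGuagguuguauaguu
hsa-let-7i-5p: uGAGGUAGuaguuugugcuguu
hsa-miR-98-5p: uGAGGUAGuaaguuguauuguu

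The Ensembl canonical transcript of each protein-coding gene in the GENCODE annotation of GRCh38 was used, which for every member was the MANE Select transcript. Its 3′UTR was searched on the sense strand for CTACCTC, the 7-base complement of the let-7 seed. An 8-base match also carries the A that follows it. HMGA2 (chromosome 12, 65824460 to 65966291, plus strand) had 4 matches in a 3′UTR of 2999 bases, 1 of them of 8 bases. IGF2BP1 (chromosome 17, 48997385 to 49056145, plus strand) had 4 matches in 6701 bases, 3 of them of 8 bases. LIN28B (chromosome 6, 104936616 to 105083332, plus strand) had 4 in 4549 bases, 2 of them of 8 bases. HMGA1 (chromosome 6, 34236873 to 34246231, plus strand) had 1 match of 7 bases in a 3′UTR of 1347 bases. IGF2BP2 (chromosome 3, 185643130 to 185825042, minus strand) and IGF2BP3 (chromosome 7, 23310209 to 23470491, minus strand) had 1 match of 8 bases each, in 2401 and 2153 bases. Of 19172 genes with a 3′UTR of at least 50 bases, 9.94% had at least 1 match and 0.0626% at least 4. The 8-base form was found in 3.81% of them. The choice of members named such sites, so nothing is read from these shares. They also take no account of length: the median 3′UTR was 1101 bases, shorter than that of every member. The library type used here does not measure mature microRNAs, and a match is a description of sequence only.

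The windows below are 28 bases each, written 5′ to 3′ on the strand of the gene with the match in capitals. They show all matches of HMGA2, 3 of which lie far from the stop codon, and the first match of each other member.
HMGA2 match 1, 21 bases after the stop codon, chr12:65963293-65963320: ggggcgccaacgttcgatttCTACCTCA
HMGA2 match 2, 1256 bases after it, chr12:65964527-65964554: atatatccccactactcaataCTACCTC
HMGA2 match 3, 1668 bases after it, chr12:65964939-65964966: gactaattgacttgcaaagacCTACCTC
HMGA2 match 4, 2521 bases after it, chr12:65965792-65965819: ttgtacaatcaaaacacactaCTACCTC
HMGA1 match, 960 bases after the stop codon, chr6:34245823-34245850: catttttcctctgttcacaaaCTACCTC
IGF2BP1 match 1, 1632 bases after the stop codon, chr17:49051056-49051083: aatgctgtgtgcgaagtaaaCTACCTCA
IGF2BP2 match, 1304 bases after the stop codon, chr3:185644220-185644247: agaaaaacacacagaagaagCTACCTCA
IGF2BP3 match, 560 bases after the stop codon, chr7:23311795-23311822: aaacgtgcatttttactcaaCTACCTCA
LIN28B match 1, 44 bases after the stop codon, chr6:105078807-105078834: cctttacccggttgcaaagtCTACCTCA

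The 3 siRNAs were examined in the same way, because HMGA2 was chosen on a contrast between cells that had received different siRNAs. Each sense strand is given with its guide strand, in which bases 2 to 8 are in capitals. Both CTU2 sense strands matched the CTU2 coding sequence over their 19 bases (siCTU2#1 at chr16:88713389-88713407 and siCTU2#2 at chr16:88714907-88714925, plus strand), and the siGL2 strand matched it over at most 5 bases.
siCTU2#1 sense: cuaucaagcucaugaccaa
siCTU2#1 guide: uUGGUCAUgagcuugauag
siCTU2#2 sense: gcgugaacaugaaggacuu
siCTU2#2 guide: aAGUCCUUcauguucacgc
siGL2 sense: cguacgcggaauacuucga
siGL2 guide: uCGAAGUAuuccgcguacg

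The 7-base complement of the siCTU2#2 guide seed, AAGGACT, occurred at 2 places in the HMGA2 3′UTR and at none in the 3′UTRs of the other 5 members. Both occurrences were followed by an A, which made them 8-base matches. Of 19172 genes, 11.9% had at least 1 such match, 1.73% at least 2, and 16 genes (0.0835%) at least 2 of the 8-base form. The complements of the siCTU2#1 and siGL2 guide seeds (ATGACCA and TACTTCG) occurred in no 3′UTR of the members, and in 9.28% and 1.27% of all genes. The longest run of bases that HMGA2 shared with the siCTU2#2 sense strand was 7 bases, and 84.3% of 20020 genes shared at least as many. Whether these matches bear on HMGA2 mRNA was not tested. Both CTU2 siRNAs were pooled in these libraries, so their effects cannot be told apart here. For CTU2, ORC3, POLR1F, FABP5 and LIMK1 mRNAs, the authors compared single siRNAs with the pool by RT-qPCR. HMGA2 was not among these mRNAs. The windows are shown with the match in capitals.
HMGA2, 174 bases after the stop codon, chr12:65963456-65963482: taaccttaaaAAGGACTatattaatca
HMGA2, 518 bases after the stop codon, chr12:65963800-65963826: caccaaagatAAGGACTagatactact

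**Figure D1:**
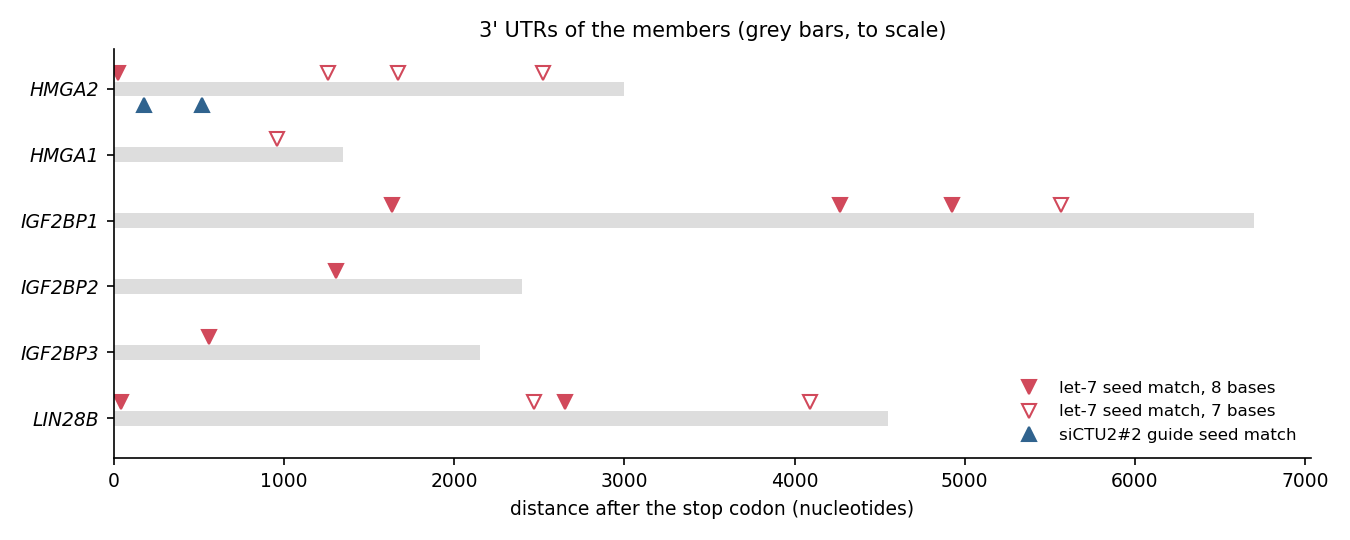
Map of the 3′UTRs of the 6 members, with the distance after the stop codon in nucleotides on the x axis and 1 grey bar per gene. Filled and open triangles pointing down mark let-7 seed matches of 8 and 7 bases, of which HMGA2, IGF2BP1 and LIN28B have 4 each, and triangles pointing up mark the 2 siCTU2#2 guide seed matches, both in HMGA2.

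The coding sequences also differed in the codons read by the tRNAs that CTU2 modifies. AAA, GAA and CAA together made up 16.5% of the HMGA2 codons (18 of 109), which placed it at percentile 97.7 of 19701 genes, whose median was 5.66%. In HMGA1 the share was 7.48% (8 of 107 codons, percentile 63.2). It was 12.8% in LIN28B (percentile 91.1), 11.4% in IGF2BP3 (85.95), 8.51% in IGF2BP2 (70.2) and 6.59% in IGF2BP1 (56.8). Whether codon content bears on the mRNA levels of the members was not tested.

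HMGA2 was read at 4 separate levels before the transcription block. In the T arm at 0 h it reached 1297, 1229 and 1184 CPM in siGL2 cells, 378, 374 and 355 CPM in pQ cells, 281, 256 and 274 CPM in mQ cells, and 114, 104 and 109 CPM in siCTU2 cells. No library of a condition reached into the range of a neighbouring condition, so the order siGL2, pQ, mQ, siCTU2 held for every replicate. The 0 h libraries of the TCHX arm gave 1212, 1222 and 1206 CPM in siGL2 cells and 97.9, 101 and 102 CPM in siCTU2 cells. In that arm pQ gave 365, 387 and 278 CPM and mQ 314, 275 and 279 CPM, so that these conditions overlapped, and the lowest pQ value came from the pQ library with extra genes.

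HMGA1, the paralogue of HMGA2, did not follow this order. Its T-arm means at 0 h were 1209 CPM ± 38.6 in pQ, 1125 ± 49.6 in siGL2, 1036 ± 77.6 in siCTU2 and 990.1 ± 40.8 in mQ cells (SD, n = 3), and siCTU2 overlapped with both siGL2 and mQ. IGF2BP1 had means of 187 CPM ± 14.5 in siCTU2 and 176 ± 6.33 in siGL2, and of 104 ± 9.56 in mQ and 102 ± 3.94 in pQ cells, with overlap within each experiment and none between the experiments. The same held for IGF2BP3, with 224 CPM ± 31.3 in siCTU2 and 191 ± 38.3 in siGL2 against 102 ± 4.03 in pQ and 92.6 ± 11.8 in mQ cells. LIN28B, which had 21 to 234 counts in these libraries, gave 15.4 CPM ± 3.81 in siCTU2 and 14.9 ± 0.729 in siGL2 against 4.35 ± 0.817 in pQ and 3.11 ± 0.625 in mQ cells. IGF2BP2 was highest in mQ cells, with 493 CPM ± 16.4, followed by siGL2 with 453 ± 11.6, siCTU2 with 444 ± 35.8 and pQ with 325 ± 16.8 CPM. Of these neighbours, siGL2 and siCTU2 alone overlapped, but the ranges of mQ and siCTU2, which are not neighbours in this order, overlapped as well.

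**Figure D2:**
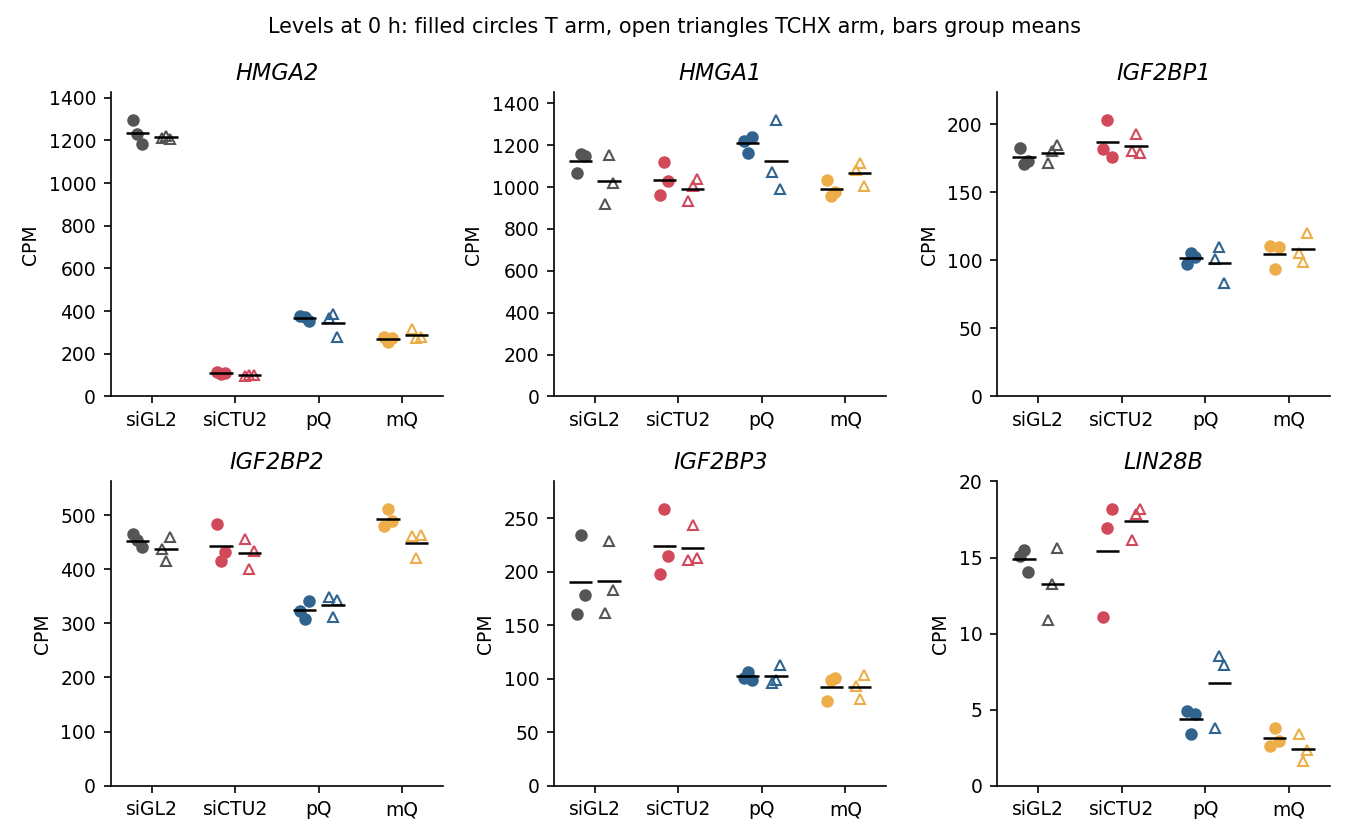
Levels of the 6 members at 0 h in CPM (y axis, starting at 0) for the 4 conditions (x axis), with filled circles for T-arm libraries, open triangles for TCHX-arm libraries and bars for means of 3. HMGA2 lies at 1184 to 1297 CPM in siGL2 and 104 to 114 CPM in siCTU2 cells of the T arm, while the T-arm values of siGL2 and siCTU2 overlap for the other 5 members.

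Between siCTU2 and siGL2 cells at 0 h, HMGA2 was lower by a factor of 11.4, with a log2 difference of -3.51 (SE 0.07, 95% interval -3.65 to -3.36), and was the 13th lowest of 12292 genes ranked. The differences by same-numbered replicates were -3.50, -3.55 and -3.44. No other member was separated in this contrast: the log2 differences were -0.12 (interval -0.25 to 0.01) for HMGA1, 0.09 (-0.08 to 0.25) for IGF2BP1, -0.03 (-0.18 to 0.11) for IGF2BP2, 0.23 (-0.02 to 0.47) for IGF2BP3 and 0.05 (-0.34 to 0.45) for LIN28B. CPM ranges were apart for 1 of the 6 members and for 47.0% of 12292 genes. The edgeR test called 17.8% of these genes higher and 18.2% lower in siCTU2 cells, and since the members were chosen on this contrast, nothing is read from their share. In the TCHX arm at 0 h the HMGA2 difference was -3.58, and leaving out single libraries gave -3.54 to -3.47. Markers of melanoma cell state moved in the same contrasts. Of 4 tested markers of the melanocyte lineage, MITF was lower in siCTU2 cells (-1.48, edgeR adjusted p = 7.24e-09) and in mQ cells (-1.16, edgeR adjusted p = 0.000235), DCT was higher in siCTU2 cells (0.77, edgeR adjusted p = 0.0486), and SOX10 and PMEL did not pass. AXL, NGFR and EGFR, 3 of 3 markers of undifferentiated melanoma, were higher in siCTU2 cells (0.95, 1.14 and 0.94, edgeR adjusted p = 0.000129, 0.0182 and 0.0207), and 0 of 3 passed in mQ cells. Their part in the values of the members was not tested.

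Glutamine depletion was compared with control medium at 0 h, where 24.8% of 12374 genes passed the threshold of an edgeR adjusted p of 0.05 and 2 of the 6 members did. IGF2BP2 rose from 324, 308 and 342 CPM in pQ cells to 480, 512 and 489 CPM in mQ cells. This was a log2 change of 0.66 (SE 0.09, edgeR adjusted p = 0.000672), all mQ libraries lay above all pQ libraries, and it passed in every alternative (0.44 to 0.70). HMGA2 fell by 0.40 on the log2 scale (SE 0.09, edgeR adjusted p = 0.00943), from a mean of 369 to 270 CPM. The HMGA2 call was lost without pQ replicate 1 (edgeR adjusted p = 0.0555) and without pQ replicate 2 (0.0534). It was also lost in the TCHX arm (-0.23, edgeR adjusted p = 0.287), but not in that arm without the pQ library with extra genes (-0.35, edgeR adjusted p = 0.00559).

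The other 4 members did not pass in the T arm. HMGA1 changed by -0.23 on the log2 scale (SE 0.08, edgeR adjusted p = 0.0615) with ranges that were apart, 957 to 1036 CPM in mQ against 1165 to 1239 CPM in pQ cells, and passed without mQ replicate 2 (edgeR adjusted p = 0.0430). IGF2BP1 gave 0.09 (SE 0.11, edgeR adjusted p = 0.563) and IGF2BP3 -0.09 (SE 0.12, edgeR adjusted p = 0.629). LIN28B gave -0.42 (SE 0.32, interval -1.12 to 0.28, edgeR adjusted p = 0.366) from 21 to 58 counts per library. In the TCHX arm at 0 h, LIN28B was at -1.49 (edgeR adjusted p = 0.0545), and at -1.36 without the pQ library with extra genes (edgeR adjusted p = 0.0222). CPM ranges of pQ and mQ were apart for 3 members (HMGA1, HMGA2 and IGF2BP2), as for 42.8% of all genes.

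**Figure D3:**
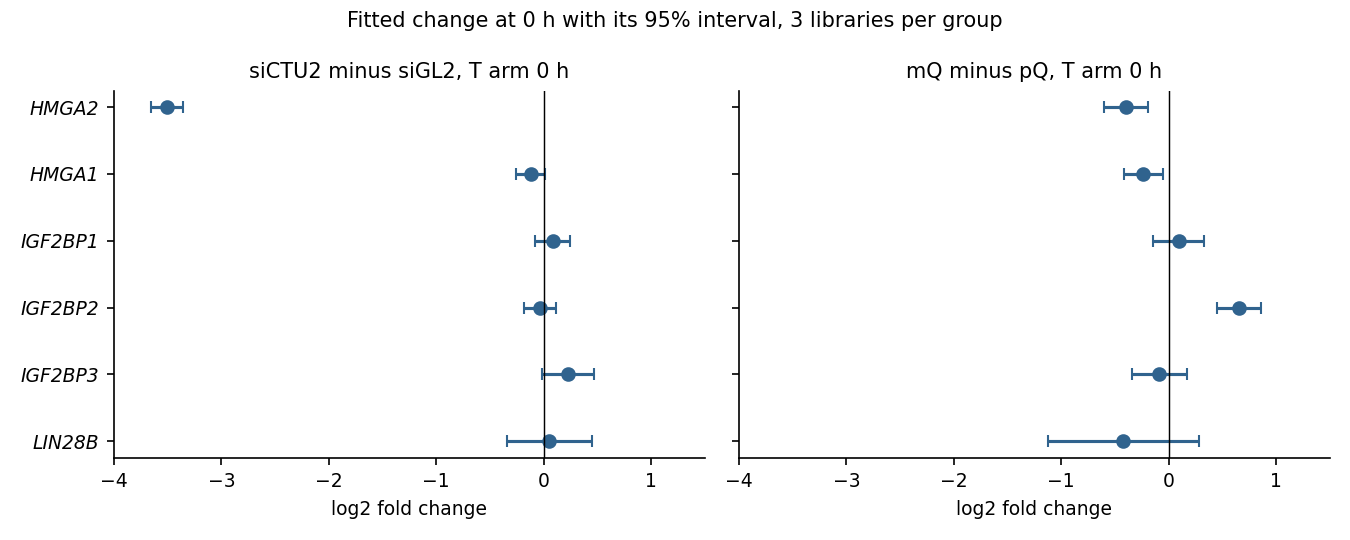
Fitted log2 fold changes of the 6 members in the T arm at 0 h (x axis) with 95% intervals, for siCTU2 minus siGL2 (left, a description) and mQ minus pQ (right, tested), from 3 libraries per group. HMGA2 lies at -3.51 on the left, where the other members lie between -0.12 and 0.23, and on the right HMGA2 lies at -0.40 and IGF2BP2 at 0.66.

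The 2 control states, siGL2 and pQ, came from separate experiments, in which transfection, time in culture and medium cannot be told apart, so their levels are set side by side only. The siGL2 mean was 3.35 times the pQ mean for HMGA2, 3.42 times for LIN28B, 1.87 times for IGF2BP3, 1.73 times for IGF2BP1, 1.40 times for IGF2BP2 and 0.931 times for HMGA1. Ranges were apart for all 6 members, against 33.8% of 12236 genes, of which 18.6% passed an edgeR adjusted p of 0.05 in this pair of groups. The pQ level of HMGA2 lay between those of the 2 siRNA groups, at 3.39 times the siCTU2 mean. For 4 members the ranges of mQ and siCTU2 were apart (HMGA2, IGF2BP1, IGF2BP3 and LIN28B), as for 51.9% of genes. Between pQ and siCTU2 all 6 were apart, against 46.0% of genes. HMGA2 was chosen for its low level in siCTU2 cells, and mQ and pQ cells came from a separate experiment. Nothing is read from these counts. The siCTU2 mean was 1.84, 1.37, 2.19 and 3.54 times the pQ mean for IGF2BP1, IGF2BP2, IGF2BP3 and LIN28B.

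Of 9494 genes with a mean of at least 10 CPM in some group, 32 (HMGA2 included) were as high as HMGA2 in siGL2 relative to pQ, and 103 were as low in siCTU2 relative to pQ. A difference of at least 2-fold in both directions was found for 5 genes (0.0527%), which are named after their values were seen: DHRS2, HMGA2, KCNAB1, LIMK1 and PSMB3_1, the last being the name of an extra copy whose reads could be shared with PSMB3. HMGA2 was chosen for its low level in siCTU2 cells. Its place in these counts was thus partly fixed by the choice, and nothing is read from it. LIMK1, a kinase that acts on cofilin, had 56.0 CPM in siGL2, 26.3 in pQ, 16.4 in mQ and 12.6 in siCTU2 cells.

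Changes after the transcription block were measured relative to stable genes, whose CPM grew by a factor of at least 1.1 by 3 h or by 5 h in each arm, replicate and condition of the experiment, since library totals cannot serve as a scale there. On this scale the median gene changed over 3 h of triptolide by -0.69 in pQ, -0.71 in mQ, -0.47 in siGL2 and -0.55 in siCTU2 cells (log2), and by about 0 when counts were scaled by TMM, so each member is also given relative to that median. In pQ cells, 5 of 6 members fell over 3 h, as did 55.2% of 13347 genes, and in mQ cells 4 of 6 fell, as did 55.4% of 13442 genes. HMGA1 alone was above the median gene by more than 0.3 in both media.

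HMGA2 mRNA was left at 46.6%, 45.3% and 39.6% of its 0 h level after 3 h in pQ cells and at 54.5%, 55.0% and 46.0% in mQ cells. All values lay below the median gene of the same condition, which was at 60.7% in pQ and 59.3% in mQ cells. The log2 changes were -1.19 in pQ (SE 0.21, edgeR adjusted p = 0.000254) and -0.96 in mQ (SE 0.14, edgeR adjusted p = 0.000327), or -0.49 and -0.24 relative to the median gene. With TMM scaling the change in pQ was -0.50 (edgeR adjusted p = 0.0228) and that in mQ no longer passed (-0.23, edgeR adjusted p = 0.192). After 5 h, 42.3%, 41.9% and 26.7% were left in pQ cells and 51.3%, 52.2% and 64.4% in mQ cells, the highest value coming from the mQ library with extra genes.

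In the siRNA experiment, as a description, HMGA2 was left at 80.3%, 80.7% and 76.4% after 3 h in siGL2 cells and at 45.8%, 62.1% and 51.2% in siCTU2 cells. After 5 h, 86.2%, 81.4% and 52.2% were left in siGL2 and 41.8%, 46.8% and 28.9% in siCTU2 cells, with the lowest value of each group in replicate 3. Ranges of siGL2 and siCTU2 did not overlap at 3 h or 5 h. The share of all genes with such ranges was not computed, so nothing is read from this. The fitted 3 h change was -0.34 (SE 0.24) in siGL2 and -0.93 (SE 0.38) in siCTU2 cells, 0.14 above and 0.38 below the median gene of the condition. The mean HMGA2 share left at 3 h was 79.1% in siGL2, 53.0% in siCTU2, 51.8% in mQ and 43.8% in pQ cells. The ranges of siCTU2, mQ and pQ overlapped, and the experiments were scaled on different sets of stable genes, so that values of separate experiments are set side by side only.

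**Figure D4:**
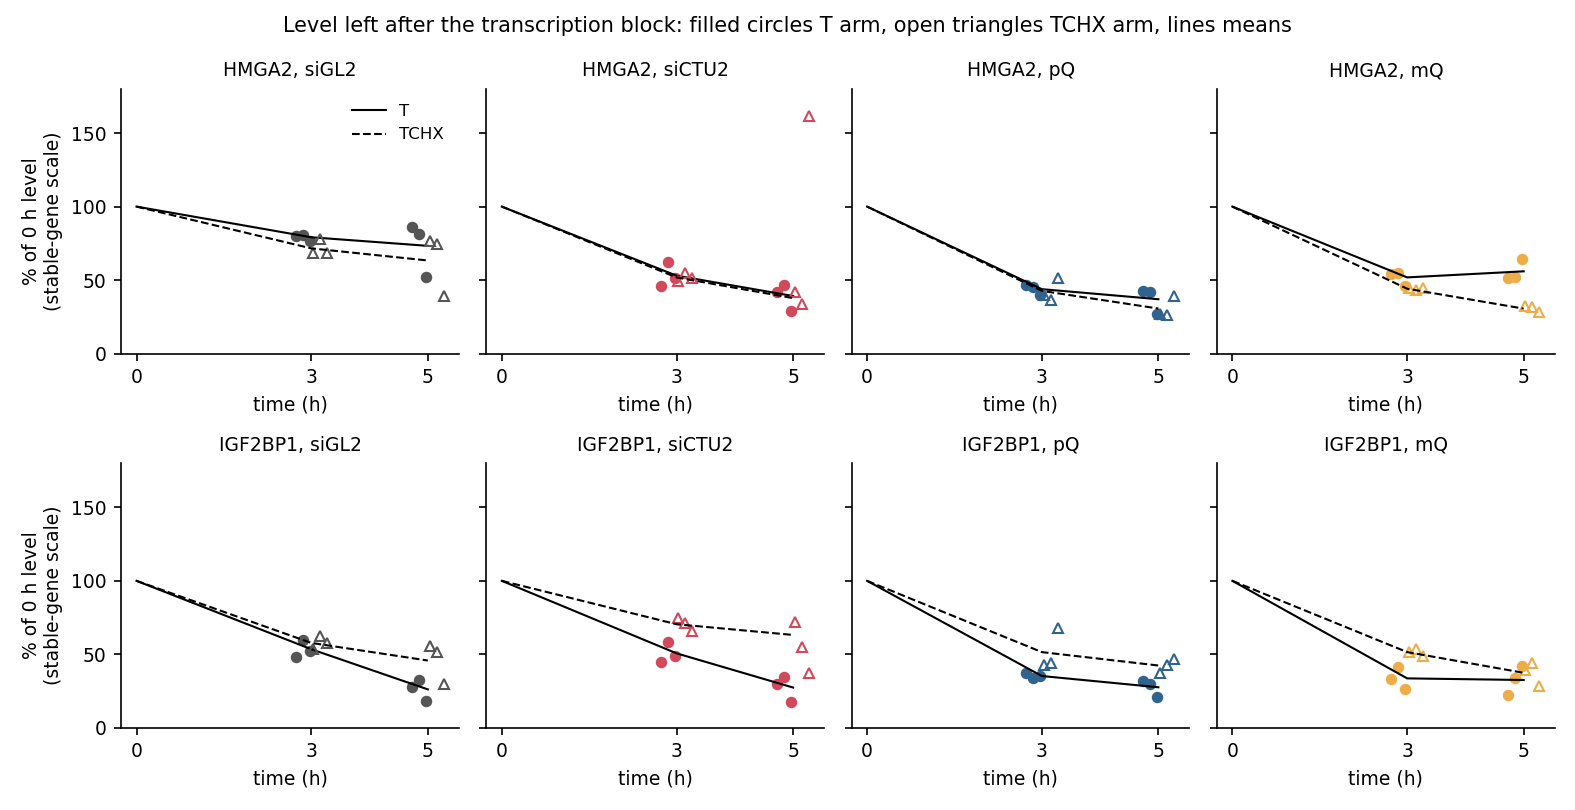
Level left as a percentage of the 0 h level of the same replicate (y axis, stable-gene scale) against hours of treatment (x axis) for HMGA2 (top) and IGF2BP1 (bottom) in the 4 conditions, with filled circles and solid lines for the T arm and open triangles and dashed lines for the TCHX arm. Lines join means of 3 replicates, except that the siCTU2 TCHX mean at 5 h is over replicates 1 and 2, and the HMGA2 point at 162% in that panel is the library labelled replicate 3. In pQ, the TCHX points of replicate 3 are relative to the 0 h library with extra genes. IGF2BP1 lines of the TCHX arm lie above those of the T arm in every panel.

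Among the IGF2BP genes, IGF2BP1 lost most. Its mRNA was left at 37.2%, 33.6% and 35.0% after 3 h in pQ cells and at 33.5%, 41.2% and 26.2% in mQ cells. The log2 changes of -1.51 (SE 0.19, edgeR adjusted p = 1.71e-05) and -1.60 (SE 0.22, edgeR adjusted p = 0.000248) were 0.82 and 0.88 below the median gene, and both also passed under TMM scaling (-0.81 and -0.87). In siGL2 and siCTU2 cells the described changes were -0.90 and -0.98.

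IGF2BP2 fell by 0.67 in pQ (SE 0.12, edgeR adjusted p = 0.00039) and by 0.88 in mQ cells (SE 0.13, edgeR adjusted p = 0.000306) on the log2 scale, and stayed within 0.17 of the median gene in all 4 conditions. IGF2BP3 fell by 0.78 in pQ (SE 0.15, edgeR adjusted p = 0.000569) and by 0.70 in mQ cells (SE 0.20, edgeR adjusted p = 0.00719), 0.09 below and 0.01 above the median gene. The IGF2BP3 call in mQ was lost without replicate 2 (-0.67, edgeR adjusted p = 0.117). With TMM scaling neither gene passed in either medium, and IGF2BP2 in pQ (0.02) and IGF2BP3 in mQ (0.03) changed sign.

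LIN28B was left at 44.5%, 62.2% and 16.98% after 3 h in pQ cells, with a log2 change of -1.35 (SE 0.42, edgeR adjusted p = 0.0128). This call was lost when any single replicate was left out (edgeR adjusted p = 0.0532 to 0.0942) and under TMM scaling. In mQ cells LIN28B was at 36.3%, 18.6% and 34.8% (-1.79, SE 0.82, edgeR adjusted p = 0.0698), and passed without the mQ library with extra genes (-1.78, edgeR adjusted p = 0.0114), in which its 5 h value stood at 175% against 11.3% and 16.2% in the other replicates. In siGL2 and siCTU2 cells the described changes of LIN28B were -0.92 and -0.63. HMGA1 did not pass in either medium, with -0.33 in pQ (SE 0.30, edgeR adjusted p = 0.338) and -0.27 in mQ cells (SE 0.30, edgeR adjusted p = 0.445). With the stricter choice of stable genes, which left 3 genes in this experiment, it fell in mQ cells (-0.87, edgeR adjusted p = 0.00776), and under TMM scaling it was at 0.45 there (edgeR adjusted p = 0.353). Its values relative to the median gene were 0.36, 0.44, 0.24 and 0.35 in pQ, mQ, siGL2 and siCTU2 cells. At 5 h, HMGA1 was left at 93.2%, 102% and 35.7% in pQ and at 91.2%, 91.4% and 36.9% in siGL2 cells, so replicate 3 was low in both.

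An interaction term asked whether the loss over 3 h was itself unequal in a pair of conditions. Between mQ and pQ cells 0 of 14177 genes passed in edgeR (0%), against 356 at an unadjusted p under 0.05 and 5 by DESeq2, and 0 members passed. The difference for HMGA2 was 0.23 (SE 0.25, interval -0.27 to 0.74, edgeR adjusted p = 1.00). Those of IGF2BP1, IGF2BP2, IGF2BP3 and HMGA1 lay between -0.21 and 0.08, with SEs of 0.16 to 0.45, and that of LIN28B was -0.44 (SE 0.91). Between siCTU2 and siGL2 cells 0 of 14259 genes passed (0%), against 414 at an unadjusted p under 0.05 and 7 by DESeq2. There the HMGA2 difference was -0.59 as a description (SE 0.48, interval -1.57 to 0.39), and -0.81, -0.38 and -0.58 by same-numbered replicates. At 5 h it was -0.92 (SE 0.48). The other 5 members lay between -0.07 and 0.29.

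Cycloheximide was next compared with its absence while transcription was blocked, as the mean of the TCHX minus T differences at 3 h and 5 h. In pQ cells 1 of 6 members was higher with cycloheximide and 0 were lower, against 12.3% and 0.457% of 13347 genes. With the replicate number as a block, for which the pQ libraries met the rule given below, 2 were higher (IGF2BP1 and IGF2BP3) and 1 lower (HMGA2), against 15.5% and 0.802% of genes. In mQ cells 0 were higher and 1 was lower, against 5.12% and 0.119% of 13442 genes. Without the mQ library with extra genes 2916 genes passed there, in place of 704. In siGL2 and siCTU2 cells, where members are described only, 12.1% and 21.0% of genes were higher and 0.555% and 0.169% lower. The median gene itself changed with cycloheximide by 0.06 in pQ, 0.05 in mQ, 0.05 in siGL2 and 0.22 in siCTU2 cells (log2).

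HMGA2 was lower with cycloheximide in mQ cells. At 5 h, 32.1%, 31.7% and 27.97% were left with cycloheximide and 51.3%, 52.2% and 64.4% without it, and at 3 h 44.5%, 43.0% and 44.9% against 54.5%, 55.0% and 46.0%. The fitted difference was -0.42 (SE 0.10, edgeR adjusted p = 0.0231), and -0.32 without the mQ library with extra genes (edgeR adjusted p = 0.012). It did not pass at 3 h alone (-0.09, edgeR adjusted p = 0.925), without replicate 1 (edgeR adjusted p = 0.352) or without replicate 2 (0.520). In pQ cells the difference was -0.37 (SE 0.14) and did not pass (edgeR adjusted p = 0.118). With the replicate block it passed (-0.35, edgeR adjusted p = 0.0147), as it did without replicate 3 (-0.47, edgeR adjusted p = 1.8e-05) and under TMM scaling (-0.44, edgeR adjusted p = 0.00336). In siGL2 cells the described difference was -0.17 (SE 0.17). In siCTU2 cells it was 0.30 (SE 0.27) with all libraries and -0.24 (SE 0.12) without the library labelled siCTU2 TCHX 5 h replicate 3, in which 162% of the 0 h level was found, against 41.9% and 33.6% in the other replicates. With all libraries and relative to the median gene, HMGA2 was at -0.43 in pQ, -0.46 in mQ, -0.22 in siGL2 and 0.08 in siCTU2 cells.

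IGF2BP1 had a positive difference with cycloheximide in every condition. In pQ cells 42.9%, 43.9% and 67.7% were left at 3 h with cycloheximide and 37.2%, 33.6% and 35.0% without it. The value of 67.7% is relative to the pQ 0 h library with extra genes, and the same library held 47.3% of the T-arm 0 h level of replicate 3. The fitted difference, which uses no 0 h library, was 0.44 (SE 0.14, edgeR adjusted p = 0.0386). This call was lost at 3 h alone (0.39, edgeR adjusted p = 0.499), without replicate 1 (edgeR adjusted p = 0.252), without replicate 2 (0.255) and with the stricter choice of stable genes (0.13, edgeR adjusted p = 0.629). In mQ cells the difference was 0.49 (SE 0.15) and did not pass (edgeR adjusted p = 0.0726), while it passed without the mQ library with extra genes (0.66, edgeR adjusted p = 0.000411) and by DESeq2 (0.49, adjusted p = 0.0353). The described differences in siGL2 and siCTU2 cells were 0.52 (SE 0.16) and 0.62 (SE 0.17), the latter 0.74 (SE 0.16) without the library labelled siCTU2 TCHX 5 h replicate 3. With all libraries and relative to the median gene, IGF2BP1 was at 0.38 in pQ, 0.44 in mQ, 0.47 in siGL2 and 0.41 in siCTU2 cells.

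The translation-dependent decay (TDD) index is the level with cycloheximide minus that without it, divided by the mean 0 h level of both arms. It was above 0 for IGF2BP1 and mostly below 0 for HMGA2 and HMGA1. Averaged over 3 h and 5 h, the index of IGF2BP1 was 0.115 ± 0.0358 in pQ, 0.14 ± 0.0697 in mQ, 0.137 ± 0.0299 in siGL2 and 0.198 ± 0.084 in siCTU2 cells (SD, n = 3), and was above 0 in 12 of 12 replicates. Without replicate 3, which holds libraries with extra genes, it was 0.18 in mQ and 0.219 in siCTU2 cells, and with the T-arm 0 h library as reference 0.109 ± 0.0295 in pQ cells. That of HMGA2 was -0.0886 ± 0.0512 in pQ, -0.122 ± 0.0734 in mQ and -0.0862 ± 0.0153 in siGL2 cells, and was below 0 in 11 of 12 replicates. In mQ cells it was -0.0796 without replicate 3, whose value of -0.207 rests on the T 5 h library with extra genes. With the T-arm 0 h library as reference, the HMGA2 index was -0.0869 ± 0.0537 in pQ cells. The exception held the library labelled siCTU2 TCHX 5 h replicate 3, with 0.566, where replicates 1 and 2 of siCTU2 gave -0.095 and -0.112. At 3 h, before that library enters, the HMGA2 index was below 0 in 12 of 12 replicates. The same held for HMGA1, whose index was below 0 in 12 of 12 replicates at 3 h and in 10 of 12 for the mean of both times. These signs depend on the reference. Relative to the 0 h library of its own arm, HMGA2 at 3 h was higher with cycloheximide in pQ replicate 3 (51.7% against 39.6%), where that library held extra genes. It was also higher in siCTU2 replicates 1 (49.6% against 45.8%) and 3 (51.22% against 51.16%), and lower in the rest. HMGA1 was higher in pQ replicate 3 (84.8% against 66.7%) and siCTU2 replicate 2 (91.8% against 89.97%), and lower in the rest. The 12 replicates pool 4 conditions, among them those of the siRNA experiment, which are described only. The index was not computed over all genes, so these counts of signs are descriptions. Relative to the 0 h library of each arm, the median gene was left at 60.7% without and 67.2% with cycloheximide at 3 h in pQ cells. In mQ cells it was left at 59.3% and 65.2%. In siGL2 cells these shares were 70.6% and 71.0%, and in siCTU2 cells 67.0% and 79.2%.

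**Figure D5:**
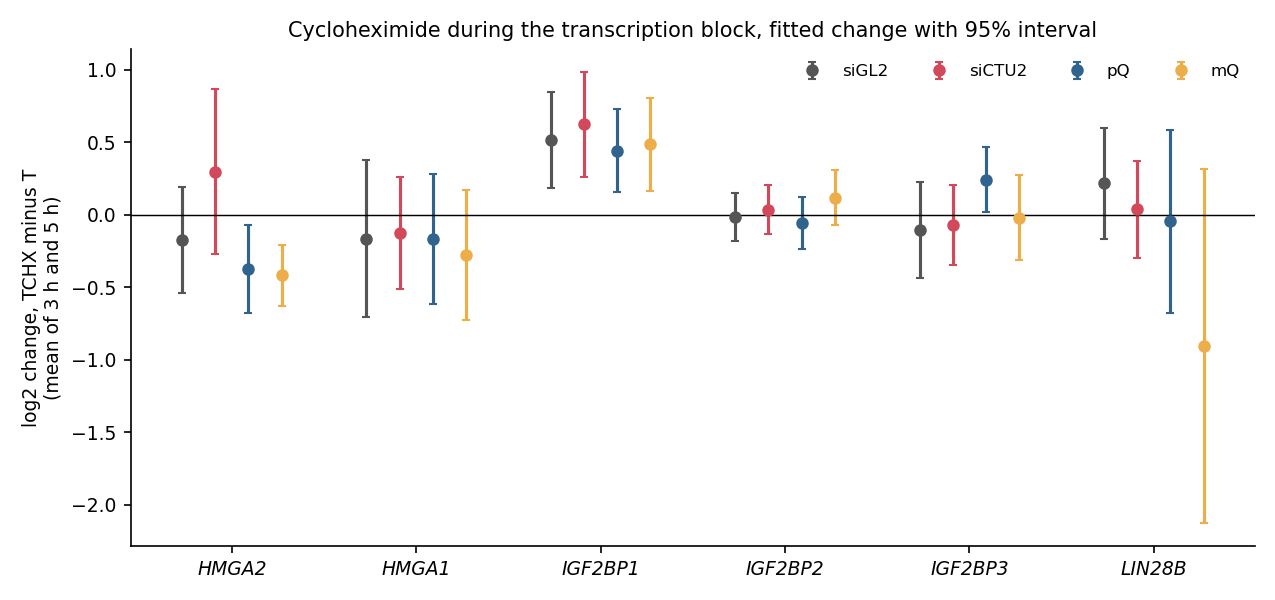
Fitted log2 differences between the TCHX and T arms (y axis, mean of 3 h and 5 h) with 95% intervals for the 6 members (x axis) in the 4 conditions. IGF2BP1 lies at 0.44 to 0.62 in all conditions, and HMGA2 lies at -0.42 to -0.17 in mQ, pQ and siGL2 and at 0.30 in siCTU2 cells, where the point includes the library labelled replicate 3 of TCHX 5 h.

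The remaining members did not pass with cycloheximide in pQ or mQ cells without the replicate block. IGF2BP2 lay between -0.06 and 0.12 in all 4 conditions, with SEs of 0.08 to 0.09. With the stricter choice of stable genes it was lower in pQ cells (-0.40, edgeR adjusted p = 0.0219). IGF2BP3 was at 0.24 in pQ cells (SE 0.11, edgeR adjusted p = 0.18), where it passed with the replicate block (0.24, edgeR adjusted p = 0.0496), and between -0.11 and -0.02 in the other conditions. Without the libraries with extra genes it was at 0.13 in mQ and 0.022 in siCTU2 cells. HMGA1 lay between -0.28 and -0.13, with SEs of 0.18 to 0.26. LIN28B ranged from -0.90 in mQ (SE 0.58, edgeR adjusted p = 0.436) to 0.22 in siGL2 cells (SE 0.18), and its mQ value became 0.23 without the library with extra genes.

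Rows that lie over or beside the members were examined, because the strand setting of the authors' counting was not given in the sources used here. RPSAP52, a pseudogene transcript that overlaps the start of HMGA2 on the opposite strand (chromosome 12, 65758020 to 65826997), had 15, 13 and 15 counts in the T arm of siCTU2 cells at 0 h and 0, 0 and 3 in that of siGL2 cells. Over the 18 libraries of a condition it held 224 counts in siCTU2, 16 in siGL2, 13 in mQ and 28 in pQ cells. It was thus higher in the condition in which HMGA2 was lowest, at no more than 31 counts per library. HMGA2-AS1, IGF2BP2-AS1 and LIN28B-AS1 had at most 3 counts in any library, and HMGA1P7 at most 8. MALSU1 overlaps the last exon of IGF2BP3 on the opposite strand, and with no strand given, reads of the pair cannot be told apart.

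Genes of the let-7 pathway were examined from lists taken from general knowledge. Of 19 genes for let-7 maturation and action, 17 were tested at 0 h, and LIN28A and TRIM71 had too few counts. Between siCTU2 and siGL2 cells 2 were higher and 6 lower, against 17.8% and 18.2% of all genes. AGO1, an Argonaute protein that carries microRNAs, had 47.7 ± 2.45 CPM in siGL2 and 12.9 ± 1.80 CPM in siCTU2 cells (SD, n = 3) and fell by 1.89 on the log2 scale (SE 0.14, edgeR adjusted p = 5.33e-09). KHSRP, which promotes let-7 processing, fell by 0.83 (edgeR adjusted p = 3.21e-09), while PRKRA, a Dicer partner, and AGO2 rose by 0.40 and 0.39. Between mQ and pQ cells 3 were higher and 1 lower, against 12.5% and 12.4% of all genes. There AGO1 rose by 0.58 (edgeR adjusted p = 0.00358) and TUT7, which uridylates let-7 precursors, by 0.52 (edgeR adjusted p = 0.0378), and PRKRA fell by 0.67 (edgeR adjusted p = 0.0242). The list medians were -0.14 in siCTU2 against siGL2 and 0.16 in mQ against pQ, beside 0.00 and 0.01 over all genes.

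Of 22 other let-7 targets, 19 were tested at 0 h. Between siCTU2 and siGL2 cells 7 were higher and 3 lower, against 17.8% and 18.2% of all genes, with a median of -0.04. TGFBR1, a TGF-beta receptor, and STARD13 rose by 1.16 and 0.94 (edgeR adjusted p = 0.000212 and 7.91e-05), and PRTG and ARID3A fell by 1.081 and 0.89 (edgeR adjusted p = 0.011 and 0.000273). Between mQ and pQ cells 2 were higher and 5 lower, against 12.5% and 12.4% of all genes, with a median of -0.15. ARID3B rose by 0.97 and IGF1R, the receptor of insulin-like growth factors, by 0.40, and DNA2 and NRAS fell by 1.59 and 1.17 (edgeR adjusted p = 0.0194, 0.0345, 0.00441 and 0.0116). The other targets thus moved in both directions in either comparison.

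Of 5 RNA-binding partners of the IGF2BP proteins, 1 was higher in siCTU2 than in siGL2 cells (HNRNPU, 0.16, edgeR adjusted p = 0.0447), where 17.8% of all genes were higher, and 3 were lower in mQ than in pQ cells, where 12.4% of all genes were lower. DHX9, an RNA helicase, had 209 ± 12.7 CPM in pQ and 95.1 ± 9.16 CPM in mQ cells (SD, n = 3) and fell by 1.084 on the log2 scale (edgeR adjusted p = 8.33e-05), and ELAVL1, which stabilises AU-rich mRNAs, fell by 0.70 (edgeR adjusted p = 0.000592). Of 3 host transcripts of let-7 genes, MIRLET7BHG was higher in siCTU2 cells (0.64, edgeR adjusted p = 0.018) and MIR100HG in mQ cells (0.68, edgeR adjusted p = 0.0458). The level of a host transcript does not measure the mature microRNA.

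Over 3 h of triptolide, 14 of 17 genes of let-7 maturation fell in pQ, 15 in mQ, 10 in siGL2 and 12 in siCTU2 cells, and 15, 15, 7 and 7 of 20 other let-7 targets, while 55.2%, 55.4% and 28.6% of all genes fell in pQ, mQ and siGL2 cells and 37.2% passed in either direction in siCTU2 cells. HIC2, a transcriptional repressor, fell by 2.64 in pQ, 2.38 in mQ, 2.26 in siGL2 and 1.80 in siCTU2 cells, and was named after its values were seen. A single listed gene rose, IGDCC3 in all 4 conditions, among 141, 148, 138 and 165 genes in all. It had 0 to 2 counts per library at 0 h and 6 to 47 at 3 h. Of the IGF2BP partners, SYNCRIP fell in pQ, mQ and siCTU2 cells and YBX1 in mQ cells. Of the host transcripts, MIRLET7BHG and MIR100HG fell in all 4 conditions and MIR99AHG in mQ cells.

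With cycloheximide, TUT7 and AGO4 were higher and DICER1, which cuts let-7 precursors, lower in pQ cells (0.35, 0.57 and -0.57, edgeR adjusted p = 0.0475, 0.0276 and 0.000606), and no gene of let-7 maturation passed in mQ cells. In siGL2 cells TUT7 was higher and AGO2 lower (0.42 and -0.47), and in siCTU2 cells TUT7, DIS3L2, AGO4 and TNRC6B were higher. Of the other targets, PLAGL2 and CDC25A were higher in pQ (1.45 and 0.78), SMARCAD1 in mQ (0.45), ARID3B and HIC2 in siGL2 (0.65 and 1.081) and 6 genes in siCTU2 cells, where the library labelled replicate 3 takes part. TGFBR1 was lower in siGL2 cells (-1.07, edgeR adjusted p = 0.00464). No partner and no host transcript passed in any condition. Of 17 tested genes of let-7 maturation, 2, 0, 1 and 4 were higher in pQ, mQ, siGL2 and siCTU2 cells. Of 20 other targets, 2, 1, 2 and 6 were. Among all genes, 12.3%, 5.12%, 12.1% and 21.0% were higher in these conditions, and 0.457%, 0.119%, 0.555% and 0.169% lower.

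The genes whose levels were most like those of HMGA2 were found by Pearson correlation of log2(CPM + 1) means over the 24 groups, among 9494 genes with at least 10 CPM in some group. They were PSD3 (r = 0.938), MCFD2 (0.938), GREB1L (0.937), ANKRD52 (0.936) and EIF3J (0.936). The groups share conditions and libraries differ in depth, so these are descriptions. ANKRD52, for example, had 114 CPM in siGL2, 57.4 in pQ, 50.9 in mQ and 21.6 in siCTU2 cells at 0 h, and EIF3J had 512, 393, 325 and 263 CPM. By Spearman correlation 1 of the 5 (GREB1L) remained among the 5 most alike, and over the T arm alone 2 did (MCFD2 and EIF3J). The other 5 members correlated with HMGA2 with r between 0.025 (HMGA1) and 0.195 (IGF2BP2).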

How the data were processed

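The authors trimmed reads with fastp 0.20.1, aligned them with HISAT2 2.2.1 to GRCh38.p13 and counted them per gene with HTSeq 0.13.5, and the deposited table holds raw counts for 72 libraries. Strand setting and duplicate handling are not given in the sources used here. Levels were computed as CPM of library totals (5987692 to 15534331 counts). The members and gene lists were chosen with earlier results of these data known. Tests used edgeR 4.0.16 (R 4.3.3): quasi-likelihood fits over all genes that passed filterByExpr, with Benjamini-Hochberg adjustment at 0.05. Counts were scaled by TMM at 0 h and by the median ratio over stable genes for time courses (197 genes in the siRNA and 81 in the medium experiment, no member among them). The 0 h fits used the compared groups, and time courses all groups of a condition. The scripts were tested on simulated data. DESeq2 1.42.0, other scalings and filters, left-out libraries and a replicate block were alternatives.

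Replicate numbers come from the sample titles. In pQ cells, deviations of same-numbered libraries correlated over 0.1 in every pair (T arm 0 and 3 h: 0.104, 0.150 and 0.272), so the numbers were taken to pair these libraries. In the other conditions they did not do so throughout. Between the T and TCHX arms of pQ at 5 h, however, libraries of different numbers also correlated at up to 0.454. The lowest value for the same number was 0.477, so the cut-off of 0.1 does not show pairing there. Members were named in every comparison, and from each list the 2 largest rises and falls at 0 h among genes that averaged 50 counts or more in one group. Sequences came from RefSeq (microRNAs) and from GRCh38 with the GENCODE annotation. Differences by replicate used a pseudocount of 0.5, and likeness to HMGA2 used 1.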

Additional observations from a re-analysis of the deposited data

Results flagged for a closer look

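For IGF2BP2, the log2 change with cycloheximide was below 0 in all 3 pQ replicates and above 0 in all 3 mQ replicates, a difference of -0.174, and above 0 in all 3 siCTU2 replicates, a difference of -0.0939. The siCTU2 replicate 3 includes the library whose CTU2 level goes against its label. Relative to the median gene of each condition, IGF2BP2 was at -0.18 in siCTU2 and -0.12 in pQ cells, which reverses the direction of that difference. For IGF2BP3, the same change was above 0 in all pQ and below 0 in all siGL2 replicates, a difference of 0.348. For HMGA2, the 3 h loss was smaller in mQ than in pQ for every replicate number and larger in siCTU2 than in siGL2 for every replicate number, and these differences were 0.822 apart. Replicate numbers were not taken to pair libraries of separate conditions. The interaction term tested the HMGA2 difference in 3 h loss between mQ and pQ, which did not pass (0.23, SE 0.25). With the stricter choice of stable genes, this fitted difference was -0.029. The other differences between conditions or experiments were not themselves tested.

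RPSAP52, which overlaps the start of HMGA2 on the opposite strand and entered no comparison, held 224 counts over the 18 siCTU2 libraries, against 16 over the 18 siGL2 libraries.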

How the results depend on the processing

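Of 372 changes of members recomputed in the medium experiment, 312 kept their direction and side of the threshold, 18 lost and 19 gained a call, and 23 changed sign. Of 360 described changes in the siRNA experiment, 303 moved by less than the spread between replicates. Where a value changed, the cause was not tested. The alternatives without the libraries with extra genes, the decay indices without replicate 3 or relative to the T-arm 0 h library, the comparison of siGL2 with pQ and the likeness over the T arm alone were chosen after seeing the data. The depth limited LIN28B most, with 21 to 58 counts per library at 0 h in mQ and pQ cells.

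At 0 h, 3071 genes passed between mQ and pQ, 810 in the TCHX arm and 1476 to 3319 without single libraries. Over 3 h, genes called were 7510 in pQ (TMM 1243, single replicates left out 3272 to 8621), 7599 in mQ (TMM 981, stable genes at both times 11406, replicates left out 2047 to 7733), 3904 in siGL2 (TMM 1259, stable genes at both times 8375, 5 h 6387, replicates left out 1277 to 6171) and 5069 in siCTU2 (TMM 1280, stable genes at both times 8210, 5 h 8888, replicates left out 1182 to 5892). The stricter stable-gene rule rested on 8 and 3 genes. For cycloheximide, genes called were 1701 in pQ (3 h alone 380, replicates left out 754 to 2246), 704 in mQ (DESeq2 1126, TMM 1193, stable genes at both times 1253, 3 h alone 46, no filter 1548, without the libraries with extra genes 2916, replicates left out 1 to 3286), 1670 in siGL2 (stable genes at both times 1110, 3 h alone 461, replicates left out 688 to 2576) and 2881 in siCTU2 (3 h alone 590, replicates left out 1275 to 2337, and 2466 without the library labelled siCTU2 TCHX 5 h replicate 3). The loss over 3 h differed for 0 genes between mQ and pQ (DESeq2 5, no filter 36, replicates left out 0 to 283) and for 0 between siCTU2 and siGL2 (DESeq2 7, TMM 1, 5 h 21, no filter 18, without the libraries with extra genes 22, replicates left out 0 to 22).

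Signs changed under TMM over 3 h for HMGA1 (0.36 in pQ, 0.45 in mQ), IGF2BP2 in pQ (0.021) and IGF2BP3 in mQ (0.034). With stable genes at both times they changed for IGF2BP3 with cycloheximide (-0.090 in pQ, 0.030 in mQ) and for the decay difference of HMGA1 (-0.20), HMGA2 (-0.029) and IGF2BP3 (-0.18). With cycloheximide in mQ, IGF2BP3 was at 0.092 at 3 h alone and 0.13 without the libraries with extra genes, where LIN28B was at 0.23. The decay difference at 5 h was 0.26 for IGF2BP1 and 0.92 for LIN28B. Leaving out single libraries or replicates gave both signs for IGF2BP3 at 0 h in mQ against pQ (-0.15 to 0.018), with cycloheximide for LIN28B in pQ (-0.47 to 0.27) and for IGF2BP3 (-0.081 to 0.089) and LIN28B (-1.84 to 0.47) in mQ, and for the decay difference of HMGA1 (-0.016 to 0.13), IGF2BP1 (-0.28 to 0.076), IGF2BP3 (-0.013 to 0.16) and LIN28B (-1.02 to 0.21). HMGA2 had 1, IGF2BP1 3, LIN28B 2 and HMGA1 0 let-7 matches of 8 bases, and of the 5 genes most like HMGA2, Spearman correlation kept 1 and the T arm alone 2.

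With the replicate block, 2463 genes passed between mQ and pQ at 0 h and 5101 between siCTU2 and siGL2, 9340, 7826, 5030 and 5522 over 3 h in pQ, mQ, siGL2 and siCTU2, 2177, 1009, 1992 and 2973 for cycloheximide, and 1 and 0 for the decay differences. It changed no other call of a member than those of HMGA2 and IGF2BP3 with cycloheximide in pQ.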
